A study of Mus musculus with 30 samples.

Results

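The sorted tumour cell fraction of 4T1 tumours was set against the CD4+ cells isolated from tumours under the same control treatment, to see which transcripts the sorted fraction held beside those of carcinoma cells. The comparison takes 10 of the 30 RNA libraries in the series, chosen by their labels. They are 5 of the 4T1 CTRL group (libraries 1 to 5, by the number that heads each count column) and 5 of the CD4 CTRL group (libraries 11 to 15). Both groups came from mouse tumours, carry the genotype label wild-type, and belong to animals given control IgG1 2 times a week for 1 month. The 4T1 cells, a mouse mammary carcinoma line, carried green fluorescent protein (GFP) and were obtained by sorting. The CD4+ cells were pulled out with magnetic beads. No sort gate, depletion step, strain, sex or age of the hosts is stated in the labels. The CD8 CTRL group (libraries 21 to 25) and the groups treated on the same schedule with C269, an antibody against extracellular NAMPT given at 2.5 mg/kg, are used for comparison where stated. Whether the 5 libraries of a group stem from 5 animals is not stated. The p-values therefore reflect only how these libraries vary.

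4T1 cells form poorly differentiated carcinomas that keep some simple-epithelial keratins while expressing mesenchymal genes. The line is known for secreting the granulocyte growth factor G-CSF and for the large numbers of neutrophils found in the hosts' blood, spleen and tumours. Neutrophils carry S100a8 and S100a9 protein in bulk, and their granule genes are switched on during maturation in the bone marrow. CD4+ T cells of tumours comprise helper cells and regulatory T cells, the latter defined by the transcription factor Foxp3. In bulk RNA, fewer cells of a type and less RNA per cell cannot be told apart, and this holds for every value below.

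T cell genes separated the fractions, and epithelial genes did not. Of 22 genes of the T cell receptor complex and its signalling, 20 were lower in the 4T1 libraries, where 3.07% of all genes tested were lower. Of 16 tested genes of simple epithelium none was higher and 1, Pkp3, was lower. Neutrophil genes were higher in the 4T1 fraction, with 8 of 9 tested genes of the secondary granule list and 16 of 19 of the mature neutrophil list, where 4.83% of all genes tested were higher. Of 19 mast cell, basophil and eosinophil genes 7 passed the count filter and 5, all mast cell proteases, were higher. Of 19 tested myeloid growth factors and chemokines 8 were higher, and of the matrix and hypoxia lists a smaller share. The filter can be met by 1 group alone, so shares of tested genes favour genes high in that group. Over whole lists the higher genes were 8 of 13 (secondary granule), 16 of 20 (mature neutrophil) and 5 of 19 (mast cell, basophil and eosinophil). Over all genes, the quasi-likelihood test of edgeR with Benjamini-Hochberg adjustment over 12493 tested genes called 603 higher (4.83%) and 383 lower (3.07%) in the 4T1 fraction at an adjusted p under 0.05. With library totals in place of TMM scaling the split turned to 455 higher and 615 lower, so 42.5% of called genes were higher instead of 61.2%. The median of all genes moved by -0.11 on the log2 scale. A fit of all 6 groups gave 298 higher and 515 lower. The calls also depended on which libraries were in the fit. Without CD4 library 12, 13 or 15 there were 242, 236 and 263 genes higher and 158, 178 and 170 lower. Without CD4 library 11 there were 378 and 188, and without CD4 library 14 there were 614 and 585. Without 4T1 libraries 1 and 3 there were 948 higher (7.09%) and 1132 lower (8.47%) of 13368 tested.

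Total counts ran from 2490921 to 4772803 per library in 4T1 CTRL and from 4009264 to 4492193 in CD4 CTRL, with 15540 to 18972 genes detected over the 10 libraries. Ribosomal RNA took 0.772% to 5.85% of a library's counts and was left out, and levels are given as CPM, a library's counts scaled to its total of gene counts. The libraries of a group were not alike. Libraries 1 and 3 were the closest pair in 4T1 CTRL, with a mean chi-square per gene of 5.19 against 24.9 for the next pair (counting error alone gives about 1). They stood apart from libraries 2, 4 and 5 in B cell and globin genes. Library 5 stood apart in collagen genes. Among the CD4 libraries, 14 stood apart. Its T cell receptor list summed to 2406 CPM, against 5541 to 6095 CPM in the other 4.

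The promoter sequences of 5 genes that mark the contrast are shown first. They are S100a8, S100a9 and Ngp, neutrophil genes that were higher in the 4T1 fraction, Krt8, an epithelial keratin with overlapping levels, and Cd3e, a T cell receptor subunit that was lower. Each line gives the 250 bases before the annotated start in RefSeq (GRCm38.p6), 5′ to 3′ on the gene's strand. Capitals mark matches on either strand to 3 short motifs, the TATA box TATAAA, the C/EBP core TTGCNNAA and the ETS core GGAAGT. The S100a8 window is chr3:90668821-90669070 (+), that of S100a9 chr3:90695722-90695971 (-), that of Ngp chr9:110419558-110419807 (+), that of Krt8 chr15:102004343-102004592 (-) and that of Cd3e chr9:45009612-45009861 (-). Gene positions given further on are those of GENCODE M21, whose starts differ from the RefSeq starts for some genes.
S100a8: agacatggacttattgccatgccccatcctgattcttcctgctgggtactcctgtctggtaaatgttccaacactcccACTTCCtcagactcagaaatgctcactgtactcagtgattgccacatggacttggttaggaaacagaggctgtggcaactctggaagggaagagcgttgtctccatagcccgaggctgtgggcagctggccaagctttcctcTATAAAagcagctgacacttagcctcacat
S100a9: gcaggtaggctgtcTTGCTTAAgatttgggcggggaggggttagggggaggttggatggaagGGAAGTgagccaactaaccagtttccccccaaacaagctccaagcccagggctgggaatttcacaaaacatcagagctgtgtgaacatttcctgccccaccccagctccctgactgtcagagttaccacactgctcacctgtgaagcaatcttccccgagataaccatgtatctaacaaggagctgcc
Ngp: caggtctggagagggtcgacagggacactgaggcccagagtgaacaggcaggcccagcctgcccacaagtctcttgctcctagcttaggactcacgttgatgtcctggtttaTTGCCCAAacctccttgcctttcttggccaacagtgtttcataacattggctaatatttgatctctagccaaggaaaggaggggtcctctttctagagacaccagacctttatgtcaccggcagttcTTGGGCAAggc
Krt8: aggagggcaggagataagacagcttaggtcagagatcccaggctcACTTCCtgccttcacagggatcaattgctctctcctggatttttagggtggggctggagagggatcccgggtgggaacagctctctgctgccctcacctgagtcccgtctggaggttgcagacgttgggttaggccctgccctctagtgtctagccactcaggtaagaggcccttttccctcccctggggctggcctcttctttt
Cd3e: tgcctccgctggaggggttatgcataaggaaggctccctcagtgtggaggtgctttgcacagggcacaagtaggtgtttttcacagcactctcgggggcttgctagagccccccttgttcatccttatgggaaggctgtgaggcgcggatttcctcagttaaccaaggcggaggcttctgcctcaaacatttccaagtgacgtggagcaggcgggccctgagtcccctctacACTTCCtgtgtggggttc
S100a8 holds TATAAA 30 bases before its start and the reverse complement of GGAAGT. S100a9 holds TTGCTTAA and GGAAGT, and Ngp holds TTGCCCAA and TTGGGCAA, the latter 11 bases before its start. Krt8 and Cd3e each hold the reverse complement of GGAAGT. Among 32851 mouse promoter windows, TATAAA occurs in 12.4%, TTGCNNAA in 9.56% and GGAAGT in 19.7%, and a match describes the letters only.

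S100a8 (chr3:90668978-90670035, GRCm38), 1 of the calprotectin pair that binds zinc and calcium, was at 5846, 4607, 6076, 2735 and 1572 CPM in 4T1 libraries 1 to 5 and at 262, 252, 258, 301 and 357 CPM in CD4 libraries 11 to 15. The lowest 4T1 library lay above the highest CD4 library (log2 fold change 4.00, SE 0.37, edgeR adjusted p = 9.73e-05). Its partner S100a9 (chr3:90692632-90695721) was at 6685, 5505, 6787, 3574 and 2038 CPM and at 276, 328, 357, 413 and 451 CPM (log2 fold change 3.88, SE 0.34, edgeR adjusted p = 8.08e-05), again without overlap. On the TPM scale, which corrects for transcript length, S100a9 averaged 21726 in the 4T1 fraction against 239 for Krt18 and 24.8 for Epcam, the epithelial genes described further on.

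Cd3e (chr9:44998740-45009627), a signalling subunit of the T cell receptor, was at 22.7, 7.24, 19.3, 2.51 and 13.2 CPM in 4T1 and at 179.8, 214, 160.2, 122 and 209 CPM in CD4 (log2 fold change -3.60, SE 0.51, edgeR adjusted p = 0.00183). It was low in the 4T1 libraries but above 0 in all 5. Cd4 (chr6:124864692-124888221), the co-receptor of helper T cells, was at 1.28, 0, 2.46, 0 and 0 CPM and 182, 192, 185, 71.3 and 172 CPM, with counts in libraries 1 and 3 alone on the 4T1 side (log2 fold change -7.34, SE 0.73, edgeR adjusted p = 0.000254). Wnt7b (chr15:85535437-85582473), a secreted Wnt ligand used here as a carcinoma marker, was at 62.4, 71.6, 60.9, 82.5 and 31.5 CPM in 4T1 and 60.9, 62.3, 66.7, 126 and 51 CPM in CD4, and the ranges overlapped (log2 fold change -0.14, SE 0.26, edgeR adjusted p = 0.799). Without CD4 library 14, the highest, its log2 fold change was 0.07. Ptprc, the pan-leukocyte protein CD45, was at 706, 375, 685, 592 and 253 CPM against 1246, 1062, 1041, 665 and 1356 CPM (log2 fold change -0.93, SE 0.30, edgeR adjusted p = 0.0766). Without CD4 library 14 it was called lower (-1.12, adjusted p = 0.0271). The labelled fractions thus differed in T cell markers in the labelled direction. The carcinoma ligand Wnt7b did not mark the 4T1 side, and CD45 transcripts were present in every 4T1 library. GFP, the marker the sort used, was not among the counted features.

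**Figure D1:**
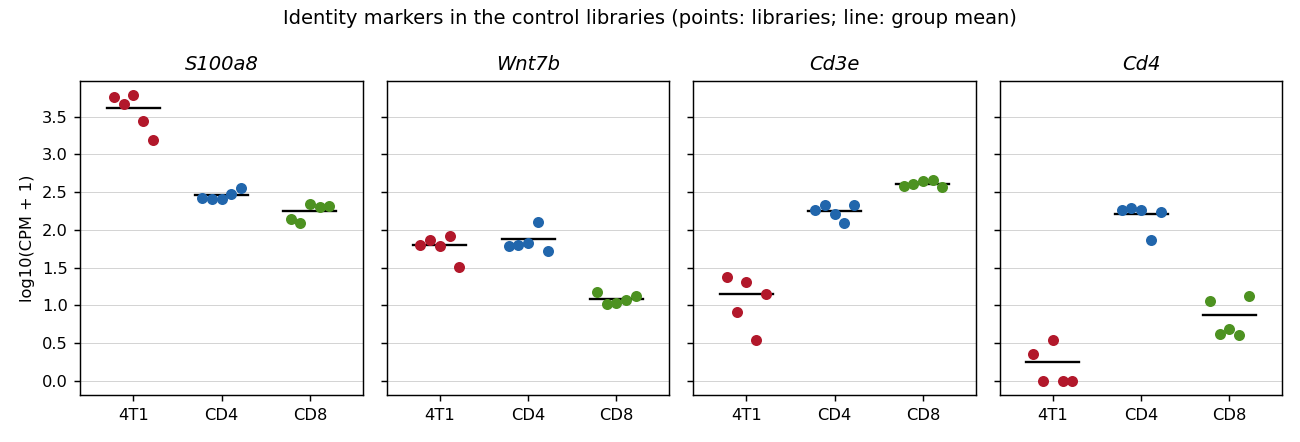
Levels of S100a8, Wnt7b, Cd3e and Cd4 as log10(CPM + 1) in the 5 libraries of each control fraction (4T1, CD4 and CD8), each point a library and the line the group mean. S100a8 was higher in all 5 4T1 libraries than in any CD4 or CD8 library, Cd3e and Cd4 were low there, and Wnt7b overlapped between 4T1 and CD4 and averaged 11.1 CPM in CD8.

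Most epithelial genes did not differ beyond the spread of the libraries between the 4T1 and CD4 fractions. Krt8 (chr15:101996698-102004482), a keratin of simple epithelia, was at 59.2, 183, 69, 78.8 and 58.2 CPM in 4T1 and 104, 79, 79.2, 93 and 77.7 CPM in CD4 (log2 fold change 0.13, SE 0.27, edgeR adjusted p = 0.819). Its partner keratin Krt18 was at 125, 277, 106, 111 and 108 CPM and 147, 104, 155, 177 and 119.9 CPM (log2 fold change 0.14, SE 0.26, edgeR adjusted p = 0.780). Library 2 was high for both keratins and the other 4 4T1 libraries lay within or below the CD4 range. Without library 2 the fold changes were -0.26 for Krt8 and -0.18 for Krt18. Epcam, an epithelial adhesion protein, was at 15.4, 45.6, 8.51, 20.6 and 23.2 CPM and 12.7, 5.64, 19.7, 12 and 26.5 CPM (log2 fold change 0.63, SE 0.45, edgeR adjusted p = 0.432). Itgb4, the hemidesmosome integrin subunit, was at 31.9, 75.8, 51.3, 57.9 and 43.6 CPM and 56, 39, 38.6, 78.8 and 25 CPM (log2 fold change 0.24, SE 0.28, edgeR adjusted p = 0.654). Vim, the intermediate filament of mesenchymal cells that 4T1 cells and leukocytes share, was between 3261 and 4874 CPM in all 10 libraries (log2 fold change 0.20, SE 0.14, edgeR adjusted p = 0.437).

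The whole list of 25 simple-epithelial genes summed to 374 to 781 CPM in 4T1 and 379 to 544 CPM in CD4, and none of its members was at 0 throughout either group. Of 16 that passed the count filter, 13 had a positive and 3 a negative fold change, with a median of 0.37 against 0.0062 over all tested genes. The called member was Pkp3, a desmosomal plaque protein, at 22.7, 36.6, 25.1, 21.8 and 6.23 CPM against 71.6, 66.1, 68.6, 69.5 and 66.4 CPM (log2 fold change -1.51, SE 0.32, edgeR adjusted p = 0.0154). Every CD4 library was higher in it than every 4T1 library. Of 9 tested basal and squamous genes, 1 was called: Dmkn, a secreted epidermal protein, at 13.5, 5.11, 9.18, 9.28 and 71.3 CPM against 3.56, 2.03, 1.17, 2.75 and 2.27 CPM (log2 fold change 3.33, SE 0.73, edgeR adjusted p = 0.0181). Library 5 was far above the rest (without it 2.06, adjusted p = 0.0301), and the call was lost without CD4 library 12, 13 or 15 (adjusted p = 0.0593, 0.0616 and 0.0578). None of 12 tested hormone-sensing and milk genes was called. Areg, an EGF receptor ligand that regulatory T cells also make, was at 58.2, 87.7, 66.8, 46.4 and 79.6 CPM in 4T1 and 74.1, 92.5, 143, 61.3 and 139.5 CPM in CD4 (log2 fold change -0.49, SE 0.28, edgeR adjusted p = 0.299). Csf3, which encodes G-CSF, was at 38.9, 59.2, 30.5, 31.4 and 27.7 CPM and 12.2, 35.2, 31.6, 42.5 and 27.3 CPM, with overlapping ranges (log2 fold change 0.44, SE 0.31, edgeR adjusted p = 0.419).

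The CD8 fraction, isolated with beads as the CD4 fraction was, had lower levels of the same carcinoma genes. Krt8 averaged 15.1 ± 7.01 CPM there (SD, n = 5) against 86.6 ± 11.6 CPM in CD4 (log2 fold change -2.43, SE 0.26, edgeR adjusted p = 5.21e-06, CD8 minus CD4). Krt18 averaged 16.9 ± 12.1 CPM (log2 fold change -2.97, SE 0.36, edgeR adjusted p = 7.49e-05) and Wnt7b 11.1 ± 1.87 CPM (log2 fold change -2.61, SE 0.24, edgeR adjusted p = 1.26e-06). Itgb4 averaged 6.75 ± 4.79 CPM (log2 fold change -2.71, SE 0.42, edgeR adjusted p = 0.000322). Between CD8 and CD4, 1222 of 12109 tested genes were called higher (10.1%) and 1596 lower (13.2%). Of 13 tested simple-epithelial genes 9 were lower in CD8 and 1 was higher (median -1.81), and of 7 tested hormone-sensing and milk genes 6 were lower. The lower levels in CD8 were not particular to carcinoma genes. Also lower, with none higher, were 8 of 17 tested mature neutrophil genes, S100a8 and S100a9 among them, and 10 of 19 fibroblast genes. The same held for 12 of 19 mesenchymal and 13 of 26 cell cycle genes. Of 24 macrophage genes 1 was lower and 1 higher. The simple-epithelial list summed to 136 to 201 CPM in CD8, below every CD4 and 4T1 library. Set against CD8 instead, the 4T1 fraction was higher in Krt8 (log2 fold change 2.57, SE 0.38, edgeR adjusted p = 0.000273) and Wnt7b (log2 fold change 2.49, SE 0.26, edgeR adjusted p = 2.86e-05). In that comparison 2409 of 12025 tested genes were called higher (20%) and 1793 lower (14.9%). The 4T1 or CD4 libraries enter 2 of these comparisons each, so their values stand side by side and are not independent.

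**Figure D2:**
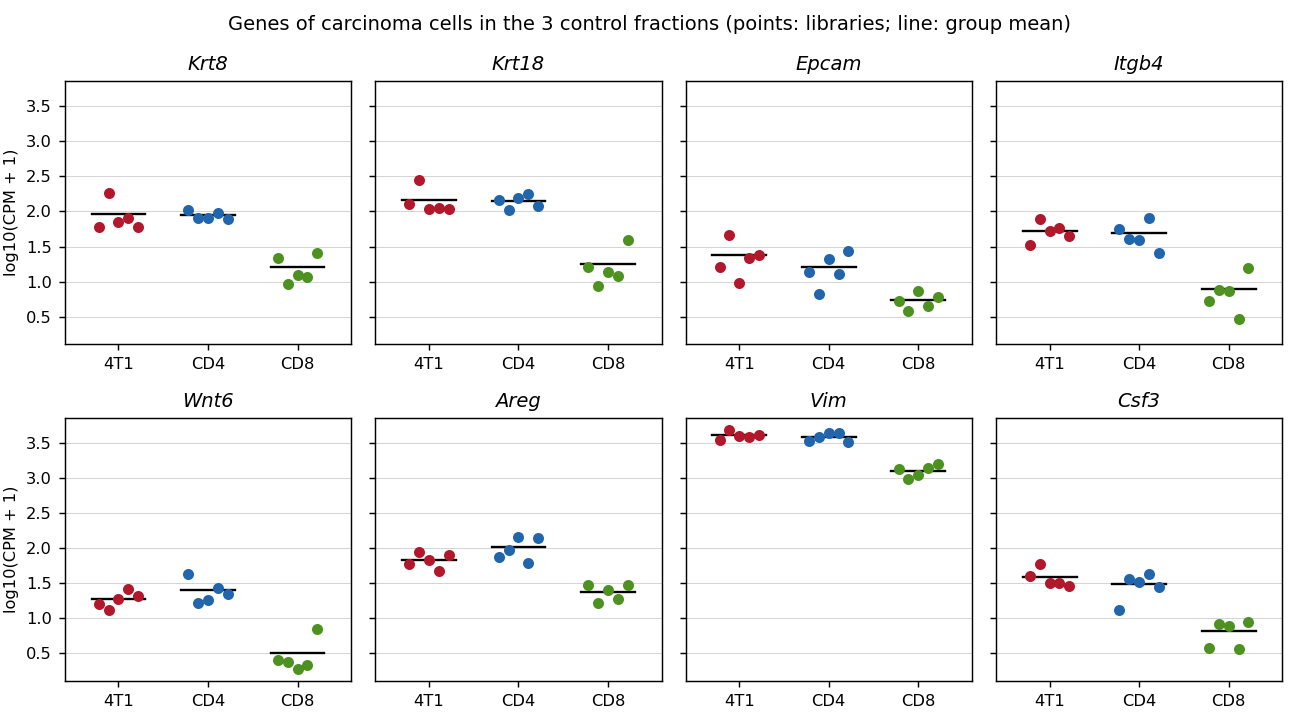
Levels of Krt8, Krt18, Epcam, Itgb4, Wnt6, Areg, Vim and Csf3 as log10(CPM + 1) in the 5 libraries of the 4T1, CD4 and CD8 control fractions, each point a library and the line the group mean. The 4T1 and CD4 libraries overlapped in each gene, and the CD8 libraries averaged lower, as for Krt8 with a mean of 15.1 CPM.

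A part of the Wnt pathway genes was called, where 4.83% of all tested genes were called higher and 3.07% lower. Among the ligands, Wnt6 was at 15.2, 12.4, 18.1, 25.1 and 19.7 CPM in 4T1 and 42.3, 15.6, 17.3, 25.8 and 20.9 CPM in CD4, with overlap (log2 fold change -0.32, SE 0.32, edgeR adjusted p = 0.579). Wnt2, a ligand made by stromal cells, was the 1 called of 6 tested, at 12, 13.2, 11.4, 8.28 and 93.8 CPM against 5.86, 0.902, 0.703, 0 and 1.26 CPM (log2 fold change 4.10, SE 1.03, edgeR adjusted p = 0.0364). Its 4T1 values were all higher, with library 5 far above the others. The call was lost without library 5 (log2 fold change 2.72, adjusted p = 0.0632) and without CD4 library 12, 13 or 15 (adjusted p between 0.104 and 0.107). Of 25 tested receptors, modulators and targets, 5 were higher (Adgra2, Fzd1, Sfrp1, Sfrp4 and Tcf7l2) and 2 were lower. Sfrp2, a secreted Wnt inhibitor of fibroblasts, was at 127, 61.8, 123, 31.6 and 542 CPM against 40.5, 4.06, 10.1, 4.001 and 20.9 CPM and missed the threshold (log2 fold change 3.62, SE 0.96, edgeR adjusted p = 0.0501). Library 5 was the highest, and without it the fold change was 2.52 (adjusted p = 0.0821). Without 4T1 library 4 or CD4 library 11 it passed (adjusted p = 0.0295 and 0.0497). The lower pair were Tcf7 and Lef1, the Wnt-responsive transcription factors of T cells. Tcf7 was at 16.7, 11.1, 19.7, 0.502 and 1.04 CPM against 284, 285, 235, 48.5 and 268 CPM (log2 fold change -4.35, SE 0.90, edgeR adjusted p = 0.0213). Lef1 was at 8.98, 0, 13.9, 0 and 3.46 CPM against 326, 292, 202, 24.5 and 183 CPM (log2 fold change -5.05, SE 1.09, edgeR adjusted p = 0.0250). CD4 library 14 was the lowest CD4 library for both genes. Both calls were lost without CD4 library 12, 13 or 15 (adjusted p 0.0523 to 0.0555 for Tcf7 and 0.0569 to 0.0645 for Lef1).

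Neutrophil granule genes were higher in the 4T1 fraction across the list. Of 13 genes of the secondary granule list, 9 passed the count filter and 8 were called higher, with a median log2 fold change of 3.42. Not all of the 13 encode granule proteins, as with Ly6g and Cebpe. Of all tested genes, 4.83% were called higher. Camp, the antimicrobial peptide cathelicidin, was at 276, 152, 272, 65.5 and 60.3 CPM in 4T1 and 6.37, 7.9, 4.45, 3.001 and 9.34 CPM in CD4 (log2 fold change 4.87, SE 0.58, edgeR adjusted p = 0.000656). Ngp, neutrophilic granule protein, was at 568, 294, 626, 126 and 152 CPM against 13.2, 19.9, 15.5, 5.5 and 17.9 CPM (log2 fold change 4.75, SE 0.60, edgeR adjusted p = 0.00112). Libraries 1 and 3 were highest for both genes and libraries 4 and 5 lowest, and every 4T1 library was above every CD4 library. Ltf, the iron-binding lactoferrin, was at 206, 155, 255, 69 and 118 CPM against 35.4, 20.3, 24.8, 20.3 and 32.6 CPM (log2 fold change 2.73, SE 0.36, edgeR adjusted p = 0.000829). Wfdc21, a whey-acidic-protein family member of neutrophils, was at 193, 112, 191, 72.5 and 55.4 CPM against 2.8, 7.9, 4.92, 10.3 and 12.1 CPM (log2 fold change 4.19, SE 0.49, edgeR adjusted p = 0.000480). Lcn2, a siderophore-binding lipocalin that carcinoma cells also secrete, differed least of those called, at 310.3, 380.3, 325, 223 and 231 CPM against 51.7, 95.7, 125, 223 and 137 CPM (log2 fold change 1.35, SE 0.31, edgeR adjusted p = 0.0209). CD4 library 14 was at the level of 4T1 libraries 4 and 5. Its call was lost without CD4 library 12, 13 or 15 (adjusted p = 0.0701, 0.0592 and 0.0511).

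Of the genes of primary granules, which are made earliest in maturation, Prtn3 (proteinase 3) was the only 1 of 5 to pass the filter. It was at 23.3, 6.39, 19.5, 3.51 and 1.73 CPM in 4T1 and 0.255, 2.48, 2.58, 0.75 and 2.02 CPM in CD4 (log2 fold change 2.88, SE 0.82, edgeR adjusted p = 0.0504). Levels were low, and the ranges overlapped. Without 4T1 library 4 or 5 it was called (adjusted p = 0.0390 and 0.0234).

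Genes of mature neutrophils followed the granule genes. Of 20 genes, 19 were tested, 16 were called higher and none lower (median 2.96), and 14 had no overlap between the groups, where 2.92% of all tested genes lay wholly above. Retnlg, a resistin-like protein of granulocytes, was at 545, 396, 577, 123 and 122 CPM against 21.6, 22.8, 28.6, 16 and 40.4 CPM (log2 fold change 3.90, SE 0.54, edgeR adjusted p = 0.00190). Csf3r, the receptor for G-CSF, chosen after its values were seen, was at 31.6, 29, 34.3, 32.6 and 9.35 CPM against 2.04, 3.16, 3.51, 6.25 and 6.31 CPM (log2 fold change 2.80, SE 0.42, edgeR adjusted p = 0.00186). Acod1, the enzyme that makes itaconate in activated myeloid cells, was at 1104, 1735, 1069, 702 and 351 CPM against 75.1, 140.1, 123, 126 and 153 CPM (log2 fold change 3.11, SE 0.37, edgeR adjusted p = 0.000429). Clec4e, the Mincle receptor for fungal and mycobacterial glycolipids, was at 406, 773, 413, 393 and 227 CPM against 41.3, 89.8, 80.6, 57 and 77.7 CPM (log2 fold change 2.76, SE 0.31, edgeR adjusted p = 0.000252). Every 4T1 library exceeded every CD4 library for these 4 genes, and library 5 was the lowest 4T1 library for each. Slpi, an inhibitor of neutrophil elastase made by epithelia as well, did not follow. It was at 907, 722, 871, 1556 and 576 CPM against 497, 444, 438, 1569 and 367 CPM (log2 fold change 0.61, SE 0.38, edgeR adjusted p = 0.358). CD4 library 14 was as high as 4T1 library 4, and Slpi was called without CD4 library 14 (1.11, adjusted p = 0.0140). The list summed to 17443, 15797, 17605, 10644 and 5536 CPM in libraries 1 to 5 and to 1407, 1544, 1589.9, 2859.7 and 1797 CPM in libraries 11 to 15.

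The 12 genes with the largest increase that met the naming rule were, beside Wnt2, mostly neutrophil genes already given. The rest were Prok2, a chemokine-like peptide of neutrophils (log2 fold change 4.25, SE 0.47, edgeR adjusted p = 0.000228), and Asprv1, an aspartic protease (log2 fold change 3.85, SE 0.53, edgeR adjusted p = 0.00104). Mirt2, a long non-coding RNA, was among them too (log2 fold change 3.85, SE 0.47, edgeR adjusted p = 0.000418). Stfa2 (log2 fold change 4.01, SE 0.44, edgeR adjusted p = 0.000254) and Cstdc5 (log2 fold change 3.79, SE 0.33, edgeR adjusted p = 8.08e-05) are cystatin-type protease inhibitors of the stefin family. The stefin genes are near-identical copies, and how reads were shared among them is not given in the sources used here, so the split between them is uncertain. Prok2 was at 66.7, 54.9, 72.8, 55.7 and 27.7 CPM in 4T1 and 0.764, 2.26, 1.87, 6.25 and 4.79 CPM in CD4. Cstdc5 was at 217, 128, 195, 138 and 75.1 CPM and 9.42, 11.1, 7.49, 15.5 and 16.1 CPM. In both, library 5 was the lowest 4T1 library and still above every CD4 library.

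**Figure D3:**
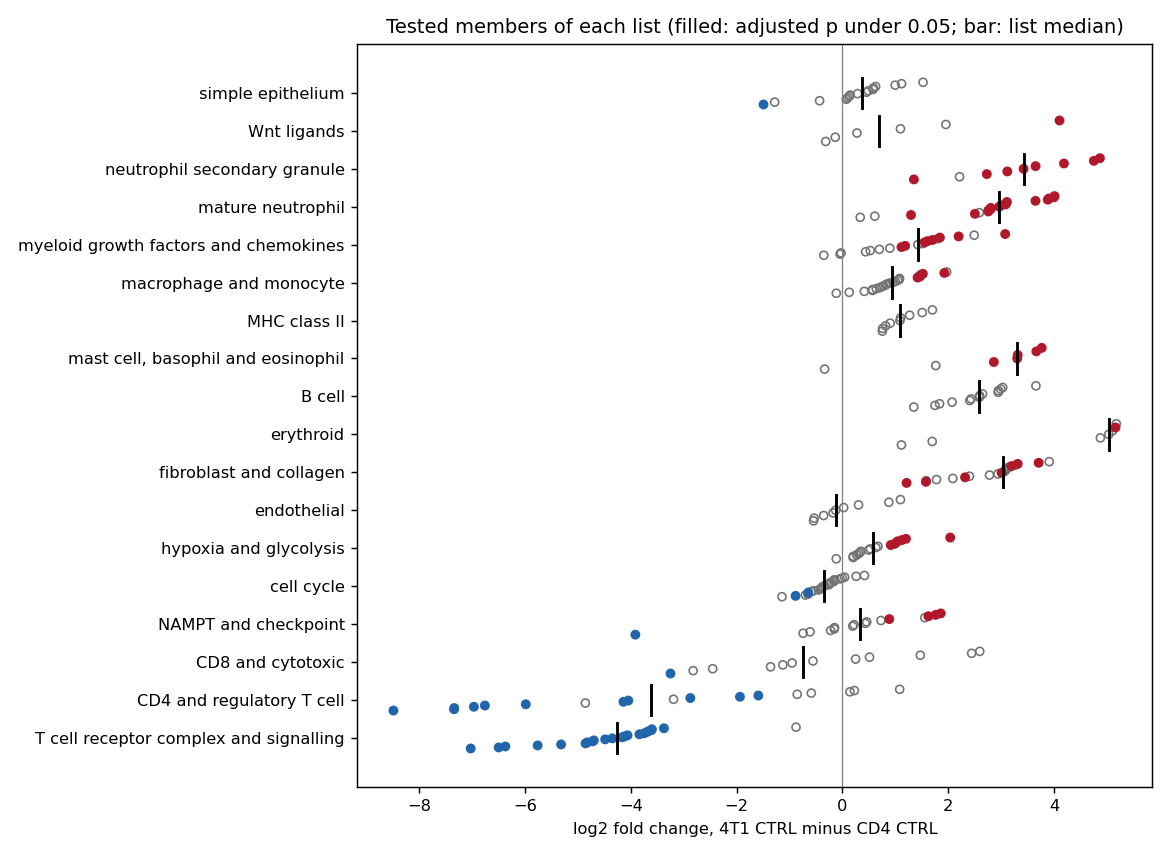
Log2 fold change (4T1 CTRL minus CD4 CTRL) of each tested member of 18 gene lists; filled points passed an adjusted p of 0.05 in edgeR, open points did not, and the bar is the list median. Most members of the neutrophil and mast cell lists lie above 0 and those of the T cell receptor list below it, and the simple epithelium list has a median of 0.37.

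Chemokines and inflammatory mediators were higher in the 4T1 fraction, though not all of them. Of 19 tested genes for myeloid growth factors and chemokines, 8 were called higher (Ccl2, Csf1, Cxcl2, Cxcl3, Il1a, Il1b, Ptgs2 and Vegfa) and none lower. The median was 1.42, and 4.83% of all tested genes were called higher. Cxcl2, a ligand of the neutrophil receptor CXCR2 that neutrophils and macrophages also make, was at 7163, 13054, 7092, 8429 and 7599.6 CPM in 4T1 and 1841, 3222, 2844, 2591 and 2379.5 CPM in CD4 (log2 fold change 1.84, SE 0.20, edgeR adjusted p = 0.000228). Library 2 was highest and no library overlapped. Il1b, the inflammasome cytokine, was at 2350.5, 2167, 2385, 1998 and 1217 CPM against 476, 808, 725, 805 and 554 CPM (log2 fold change 1.70, SE 0.22, edgeR adjusted p = 0.000664). Ptgs2, cyclooxygenase 2, was at 652, 1478, 763, 659 and 973 CPM against 322, 487, 506, 379.8 and 429 CPM (log2 fold change 1.18, SE 0.23, edgeR adjusted p = 0.00968). Both were separated between the groups without overlap. Cxcl1, another CXCR2 ligand, was at 953, 2872, 1042, 789.9 and 3539.5 CPM against 539.8, 772, 976, 542 and 597 CPM and missed the threshold (log2 fold change 1.52, SE 0.43, edgeR adjusted p = 0.0544). Libraries 2 and 5 were well above the rest. It passed without 4T1 library 1 or 4 (adjusted p = 0.0453 and 0.0246). In a fit of all 6 groups, where the spread is shared, 1 list member was called in place of 8.

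Macrophage genes differed by gene and by library. Of 24 tested, 4 were called higher (Cd14, Cd68, Itgam and Nos2), where 4.83% of all tested genes were. None was called lower, and the median was 0.93. Cd14, the lipopolysaccharide co-receptor of monocytes and neutrophils, was at 966, 1624, 885, 1175 and 817 CPM against 183, 373, 319.7, 371 and 288 CPM, without overlap (log2 fold change 1.93, SE 0.22, edgeR adjusted p = 0.000275). C1qa, a complement subunit that tissue macrophages make, was at 118, 499, 103, 1199.8 and 165 CPM against 96, 248, 179, 646 and 127 CPM (log2 fold change 0.74, SE 0.74, edgeR adjusted p = 0.585). Libraries 4 and 2 were high on the 4T1 side and library 14 on the CD4 side, and without library 4 the fold change was -0.12. Apoe, a lipid carrier abundant in macrophages, followed the same libraries, at 521, 1686, 518, 2671 and 765 CPM against 417, 1023, 697, 1523 and 682 CPM (log2 fold change 0.57, SE 0.46, edgeR adjusted p = 0.488). Arg1, the arginase of suppressive myeloid cells, was at 78.1, 691, 87.4, 688 and 746 CPM against 81.7, 135, 94.8, 183 and 119.9 CPM (log2 fold change 1.97, SE 0.62, edgeR adjusted p = 0.0824). Libraries 2, 4 and 5 were above every CD4 library and libraries 1 and 3 were not. Without 4T1 library 1 or 3 Arg1 was called (adjusted p = 0.0263 and 0.0344). Without both, its fold change was 2.55 (adjusted p = 8.1e-05).

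None of 9 MHC class II genes passed the test, though all 9 had positive fold changes (median 1.09). H2-Aa, a class II alpha chain, was at 3841, 881, 3969, 2313 and 371 CPM against 532, 1506, 957, 1747 and 1165 CPM (log2 fold change 1.10, SE 0.61, edgeR adjusted p = 0.303). Cd74, the invariant chain, was at 2144, 678, 2052, 1539 and 224 CPM against 282, 660.4, 523, 1057 and 533 CPM (log2 fold change 1.27, SE 0.56, edgeR adjusted p = 0.197). Libraries 1, 3 and 4 were high and library 5 was below every CD4 library in both genes. Without library 5, Cd74 was called (adjusted p = 0.0429). Of 12 dendritic cell genes none was called (median 0.16). Class II levels and B cell counts were both high in libraries 1 and 3, and the part of B cells in the class II values was not tested.

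Mast cell proteases were higher in all 4T1 libraries. Of 19 genes of mast cells, basophils and eosinophils, 7 passed the filter and 5 were called higher (Cpa3, Cma1, Mcpt4, Tpsab1 and Tpsb2). The median was 3.30, and 4.83% of all tested genes were called higher. Of the 7, 6 had a positive and 1 a negative fold change. Set against CD8 instead, the same 5 proteases were higher and Kit, also in the list, was lower. Cma1, a chymase, was at 106, 37.1, 113, 20.6 and 91.8 CPM against 10.4, 6.54, 7.03, 2.75 and 5.3 CPM (log2 fold change 3.66, SE 0.55, edgeR adjusted p = 0.00222). Tpsab1, a tryptase, was at 172, 34.5, 142, 35.1 and 39.8 CPM against 4.07, 8.12, 10.8, 1.5 and 9.84 CPM (log2 fold change 3.77, SE 0.70, edgeR adjusted p = 0.0105). Its neighbour Tpsb2, a like tryptase with which it may share reads, was at 182, 43.4, 151, 30.9 and 72 CPM against 7.89, 12.6, 18, 5.25 and 9.84 CPM (log2 fold change 3.30, SE 0.58, edgeR adjusted p = 0.00689). Cpa3, a carboxypeptidase, was at 117, 21.3, 136, 17.6 and 37.7 CPM against 4.84, 9.02, 12.4, 2.001 and 8.58 CPM (log2 fold change 3.31, SE 0.73, edgeR adjusted p = 0.0239). For all 4 genes, libraries 1 and 3 were highest, and no CD4 library reached the lowest 4T1 library. The Cpa3 call was lost without CD4 library 11, 12 or 15 (adjusted p = 0.0599, 0.0679 and 0.0673).

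B cell and red cell genes divided the 4T1 libraries among themselves. Ms4a1, the B cell surface protein CD20, was at 156, 5.96, 159, 1.003 and 0 CPM in libraries 1 to 5 and 20.9, 9.93, 13.1, 4.001 and 39.9 CPM in CD4 (log2 fold change 2.07, SE 1.38, edgeR adjusted p = 0.398). Igkc, the kappa light chain constant region, was at 3292, 118, 3094, 131 and 419 CPM against 1046, 199, 274, 129 and 594 CPM (log2 fold change 1.83, SE 1.07, edgeR adjusted p = 0.328). Ighm, the IgM heavy chain, was at 877, 64.3, 915, 70.7 and 14.2 CPM against 205, 149, 143, 64.3 and 302 CPM (log2 fold change 1.35, SE 1.03, edgeR adjusted p = 0.467). Libraries 1 and 3 were above all CD4 libraries in these 3 genes, and libraries 2 and 4 lay within or below the CD4 range. Without libraries 1 and 3 the fold changes turned to -3.01, -0.98 and -1.82. All 14 tested B cell genes had positive fold changes and none was called (median 2.59, or -0.58 without libraries 1 and 3). The list summed to 6077, 396, 5912, 261 and 736 CPM in 4T1 and 239.6 to 1443 CPM in CD4, with none of 16 markers at 0 throughout a group.

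Hbb-bs, an adult beta globin of red cells, was at 11507, 744, 12081, 94.3 and 406 CPM in 4T1 and 229, 105, 198, 114 and 149 CPM in CD4 (log2 fold change 5.15, SE 1.33, edgeR adjusted p = 0.0451). The call rested on libraries 1 and 3. Without them the fold change was 1.38 (adjusted p = 0.114). It was also lost without library 1 or 3 alone (adjusted p = 0.0720 and 0.0734) and without any of the 5 CD4 libraries (adjusted p 0.0793 to 0.120). Of 3 tested platelet genes 1, Ppbp, was called. Ppbp, the precursor of platelet basic protein, named after its values were seen, was at 2.78, 47.3, 3.14, 5.52 and 30.1 CPM against 3.06, 3.84, 1.17, 1.5 and 1.77 CPM (log2 fold change 3.00, SE 0.81, edgeR adjusted p = 0.0425). Libraries 2 and 5 were high, and the call was lost without either (adjusted p = 0.104 and 0.0760) and without any of the 5 CD4 libraries (adjusted p 0.0724 to 0.115). Pf4, a platelet chemokine that some macrophages make, was at 41.3, 716, 51.5, 440.5 and 414 CPM against 93.7, 122, 137, 169 and 85 CPM (log2 fold change 1.505, SE 0.69, edgeR adjusted p = 0.210). It was low in libraries 1 and 3 and high in 2, 4 and 5, and without 1 and 3 it was called (2.11, adjusted p = 0.000408). Gp1bb, Gp6 and Gp9, defining surface receptors of platelets, were at 0 in all 5 4T1 libraries. The part that differing B cell, red cell and neutrophil content of the libraries plays in the other gene groups was not tested. Without libraries 1 and 3, 15 of 19 mature neutrophil genes, 7 of 9 secondary granule genes and 4 of 7 mast cell genes were called higher.

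**Figure D4:**
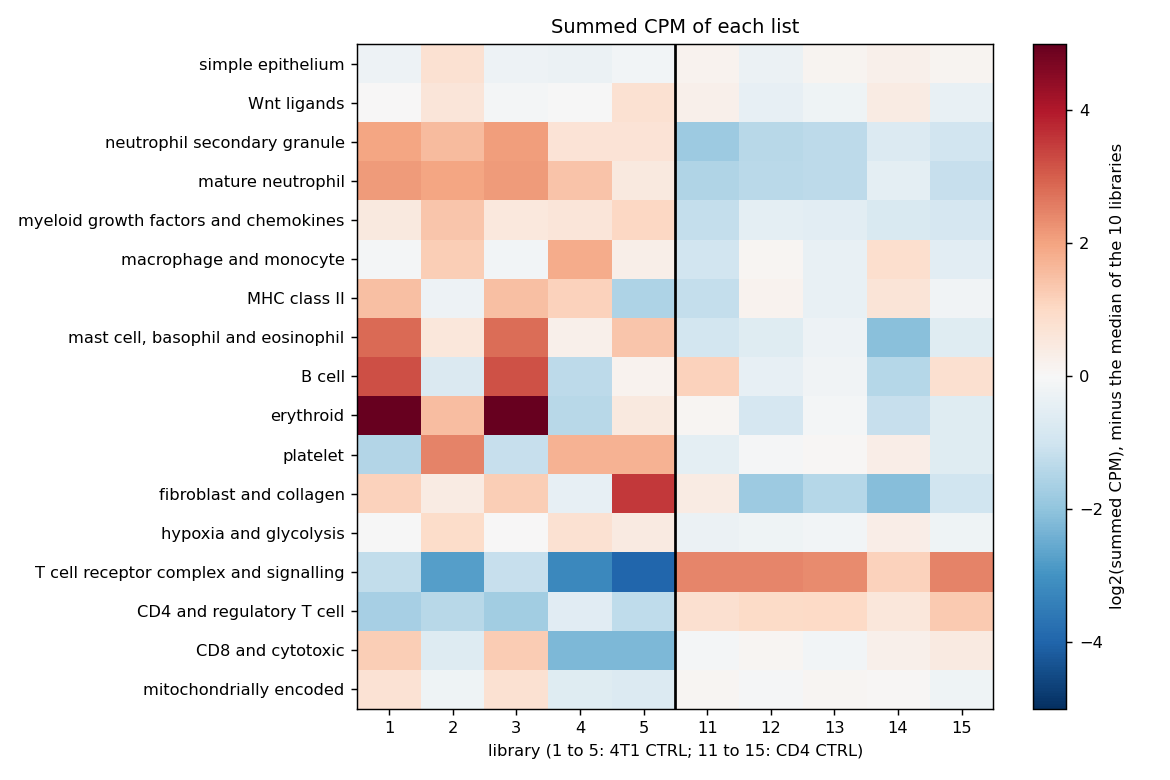
Summed CPM of the members of 17 gene lists in each of the 10 libraries, as log2 difference from the median of the 10 (red higher, blue lower), with 4T1 CTRL left and CD4 CTRL right of the line. The mature neutrophil row is red in libraries 1 to 4 and palest in library 5 of the 4T1 group, the T cell receptor row is blue in all 5. The erythroid and B cell rows mark libraries 1 and 3, and the fibroblast row marks library 5.

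Some fibroblast and matrix genes were higher in the 4T1 fraction, and library 5 held the most of them. Of 20 fibroblast and collagen genes all had positive fold changes (median 3.03) and 7 were called: Bgn, Col6a1, Col6a2, Col6a3, Fap, Lum and Pdgfra. For all tested genes the share called higher was 4.83%. Lum, the collagen-binding proteoglycan lumican, chosen after its values were seen, was at 118, 86, 129, 43.6 and 509.8 CPM against 27, 8.8, 18.7, 5.001 and 14.6 CPM, without overlap (log2 fold change 3.71, SE 0.76, edgeR adjusted p = 0.0202). Without 4T1 library 5 the fold change was 2.74 (adjusted p = 0.00777). The call was lost without CD4 library 12, 13 or 15 (adjusted p = 0.0645, 0.0616 and 0.0654). Col1a1, the alpha 1 chain of type I collagen, was at 2377, 1296, 2489, 859 and 13039 CPM against 1362, 264, 348, 131 and 499 CPM (log2 fold change 3.08, SE 0.93, edgeR adjusted p = 0.0727). It was called without 4T1 library 4 (adjusted p = 0.0460). Col3a1 was at 3473, 1989, 3893, 931 and 18479 CPM against 2069, 319, 546, 138 and 734 CPM (log2 fold change 3.05, SE 0.98, edgeR adjusted p = 0.0890). Library 5 exceeded the next 4T1 library several times over in both collagens, and CD4 library 11 exceeded 4T1 library 4. Without library 5 the fold changes were 1.83 for Col1a1 (adjusted p = 0.157) and 1.83 for Col3a1 (adjusted p = 0.208). The count of 7 fell to 1 without CD4 library 12, 13 or 15, to 3 without 14, and to 4 without 4T1 library 1 or 3, and rose to 12 without 4T1 library 4. Of 19 tested mesenchymal and invasion genes 6 were called higher (Fn1, Mmp14, Mmp3, Mmp9, Plaur and Zeb2; median 1.67).

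Lpl, lipoprotein lipase, was the 1 called of 3 tested adipocyte genes, at 126, 145, 125, 92.1 and 243 CPM against 33.4, 26.2, 16.6, 30.01 and 26.2 CPM (log2 fold change 2.59, SE 0.28, edgeR adjusted p = 0.000228). It did not overlap between the groups. The list of 10 adipocyte genes summed to 99.6 to 308 CPM in 4T1 and 33.3 to 64.9 CPM in CD4, also without overlap. Pck1 was at 0 in all 10 libraries, and Cidec, Lep and Plin4 were at 0 in the 5 CD4 libraries. The part of adipocytes in the Lpl values was not tested. None of 9 endothelial genes was called (median -0.13). Pecam1, the endothelial adhesion protein CD31 that leukocytes also carry, was at 75.3, 38.3, 71, 101 and 36.4 CPM against 122, 106, 85.5, 76 and 112 CPM (log2 fold change -0.54, SE 0.28, edgeR adjusted p = 0.257).

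A part of the hypoxia and glycolysis genes was higher. Of 18 tested, 6 were called (Adm, Bnip3, Ero1l, Hk2, Ndrg1 and Slc2a1), where 4.83% of all tested genes were called higher. Positive fold changes were found in 17 of the 18 (median 0.58). Slc2a1, the glucose transporter GLUT1, was at 209.6, 296, 262, 309 and 195 CPM against 120.4, 121, 126, 163 and 132 CPM, without overlap (log2 fold change 1.04, SE 0.15, edgeR adjusted p = 0.00130). Ndrg1, a stress-induced gene of hypoxic cells, was at 368, 869.7, 425, 727 and 612 CPM against 285, 333, 317, 445 and 318 CPM (log2 fold change 0.91, SE 0.20, edgeR adjusted p = 0.0181). Below CD4 library 14 lay libraries 1 and 3, and the call was lost without CD4 library 11, 12, 13 or 15 (adjusted p 0.0520 to 0.0667). The count of 6 became 3 without CD4 library 11 or 13 and 2 without 12 or 15.

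Of 26 cell cycle genes, 2 were called, both lower, where 3.07% of all tested genes were. Of the 26, 23 had negative fold changes (median -0.35). Top2a, the topoisomerase of dividing cells, was at 278, 389, 251, 491 and 376 CPM against 426, 465, 499.7, 622 and 452 CPM and was not called (log2 fold change -0.37, SE 0.17, edgeR adjusted p = 0.191). The called pair were subunits of the replicative helicase. Mcm6, chosen after its values were seen, was at 59.7, 35.3, 60.03, 69.2 and 64.1 CPM against 107, 139, 131, 84.5 and 113 CPM (log2 fold change -0.89, SE 0.22, edgeR adjusted p = 0.0326). Mcm7 was at 70.4, 69.8, 72.1, 108 and 79.6 CPM against 98, 153, 124, 149 and 147 CPM (log2 fold change -0.65, SE 0.17, edgeR adjusted p = 0.0385). Both calls were lost without CD4 library 12, 13 or 15, with adjusted p up to 0.0946 for Mcm6 and 0.109 for Mcm7. Mcm6 was also lost without CD4 library 11 (0.0589) and Mcm7 without 4T1 library 1, 2 or 3 (0.0651, 0.0690 and 0.0616). The list of 13 mitochondrially encoded protein genes had 7 tested and none called. It summed to 68539, 35516, 70567, 27342 and 25733 CPM in 4T1 and 35577 to 43782 CPM in CD4, highest in libraries 1 and 3. Its members mt-Atp8, mt-Co2, mt-Co3 and mt-Nd4l were at 0 throughout both groups. Outside the list, 6 of 12 tested mitochondrial tRNA genes were called higher (median 1.23), where 4.83% of all tested genes were.

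T cell receptor genes were lower in the 4T1 fraction. Of 22 genes of the T cell receptor complex and its signalling all were tested, 20 were called lower and none higher (median -4.26). Of the 22, 21 lay wholly below the CD4 libraries, where 7.75% of all tested genes did. Trac, the constant region of the receptor's alpha chain, was at 9.41, 4.68, 12.5, 0 and 0 CPM in 4T1 and 530.2, 605, 522, 259 and 632 CPM in CD4 (log2 fold change -6.37, SE 0.98, edgeR adjusted p = 0.00485). Cd5, a scavenger-type receptor that dampens T cell signalling, was at 0, 0, 3.58, 1.003 and 0 CPM against 152, 159.7, 154, 102 and 194 CPM (log2 fold change -7.03, SE 0.75, edgeR adjusted p = 0.000414). Its relative Cd6 was at 2.57, 2.98, 1.57, 0 and 0 CPM against 133, 151, 137, 92.3 and 193 CPM (log2 fold change -6.50, SE 0.63, edgeR adjusted p = 0.000197). The CD4 libraries were above every 4T1 library in all 3 genes, with several 4T1 libraries at 0. Bcl11b, a transcription factor that commits cells to the T lineage, was at 16.5, 0, 14.8, 1.76 and 1.04 CPM against 571, 522, 443, 166 and 478 CPM (log2 fold change -5.76, SE 0.97, edgeR adjusted p = 0.00777). The residual T cell counts sat mainly in libraries 1 and 3. The list summed to 462, 161, 489.7, 117 and 69.95 CPM in libraries 1 to 5, and to 5835, 5972, 5541, 2406 and 6095 CPM in libraries 11 to 15. The count of 20 fell to 9 without CD4 library 12, 13 or 15 and to 12 without CD4 library 11.

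Genes of CD4 and regulatory T cells were lower as well, 11 of 18 called and none higher (median -3.62). The share called lower over all tested genes was 3.07%. Of the 18, 3 had positive fold changes. Foxp3 was at 83.3, 109, 104, 68.8 and 111 CPM in CD4 and had counts in library 3 alone of the 4T1 fraction, at 0.896 CPM (log2 fold change -8.49, SE 0.60, edgeR adjusted p = 1.5e-05). Izumo1r, the folate receptor 4 of regulatory T cells, was at 105, 106, 121, 48.5 and 145 CPM in CD4 and likewise had counts in library 3 alone, at 0.448 CPM (edgeR adjusted p = 1.09e-05). Ctla4, the inhibitory receptor, was at 4.06, 0, 7.62, 1.25 and 0 CPM against 428, 362, 518, 204 and 476 CPM (log2 fold change -6.97, SE 0.85, edgeR adjusted p = 0.00124). Tnfrsf4, the co-stimulatory receptor OX40, was at 1.28, 8.52, 0.672, 0.251 and 0 CPM against 177, 212, 232, 155 and 285 CPM (log2 fold change -6.76, SE 0.79, edgeR adjusted p = 0.000859). Ikzf2, the regulatory T cell factor Helios, differed less and was above 0 in every 4T1 library, at 36.4, 42.6, 55.3, 12.5 and 44.7 CPM against 283, 326, 268, 296 and 369.9 CPM (log2 fold change -2.88, SE 0.34, edgeR adjusted p = 0.000371). Icos, a co-stimulatory receptor, was at 46.2, 0, 31.8, 0 and 0 CPM against 445, 560.0, 580.3, 294 and 770.1 CPM (log2 fold change -4.86, SE 1.33, edgeR adjusted p = 0.0554). Libraries 1 and 3 held all its 4T1 counts and the groups did not overlap. It missed the threshold, which it passed without 4T1 library 4 (adjusted p = 0.0437). The remaining genes with the largest decrease under the naming rule included Cd40lg, the helper ligand for CD40 (log2 fold change -7.34, SE 0.78, edgeR adjusted p = 0.000228), and Trat1, a T cell receptor adaptor (log2 fold change -6.20, SE 0.71, edgeR adjusted p = 0.000366). Ikzf4, the transcription factor Eos, was among them (log2 fold change -5.99, SE 0.72, edgeR adjusted p = 0.000889), as was Esm1, a secreted proteoglycan (log2 fold change -5.92, SE 0.76, edgeR adjusted p = 0.000617). The last was Tdrp (log2 fold change -6.76, SE 0.93, edgeR adjusted p = 0.000974).

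Of 12 tested genes of CD8 and cytotoxic cells 1, Cd8b1, was called lower, where 3.07% of all tested genes were. Cd8a, the CD8 co-receptor, was at 3.42, 0, 5.15, 0 and 0 CPM in 4T1 and 6.88, 16.9, 13.3, 18 and 19.7 CPM in CD4, without overlap, and missed the threshold (log2 fold change -2.82, SE 0.96, edgeR adjusted p = 0.0900). Without 4T1 library 3 it passed (adjusted p = 0.0477). The list summed to 696, 191, 728, 63.2 and 62.3 CPM in libraries 1 to 5 and to 268.6 to 408 CPM in CD4. The sums of libraries 1 and 3 were above the CD4 range and those of the other 3 below it. Without libraries 1 and 3, 11 of 13 tested members were called lower. Among 11 genes of naive and memory T cells 6 were lower (Dapl1, Il7r, Klf2, Lef1, S1pr1 and Tcf7).

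The genes of the NAMPT and checkpoint list bear on the antibody that the series tests. Nampt, the NAD-salvage enzyme whose extracellular form C269 binds, was at 130.4, 176, 134, 308 and 72.4 CPM in 4T1 and 101, 119, 117, 175 and 122 CPM in CD4 and was not called (log2 fold change 0.46, SE 0.28, edgeR adjusted p = 0.340). Of 16 tested members 4 were higher, Cd274, Cd86, Entpd1 and Tlr4, and 1 was lower, Pdcd1. Over all tested genes 4.83% were called higher and 3.07% lower. Cd274, the checkpoint ligand PD-L1, was at 342, 365, 304, 356 and 179.7 CPM against 137, 219, 191, 169 and 179.7 CPM (log2 fold change 0.88, SE 0.20, edgeR adjusted p = 0.0213). Library 5 was at the level of CD4 library 15, and the call was lost without CD4 library 11, 13 or 15 (adjusted p = 0.0589, 0.0586 and 0.0642). Its receptor Pdcd1, PD-1, was at 6.63, 0, 1.79, 0 and 0 CPM against 14.8, 26.6, 29.7, 31.8 and 56.8 CPM (log2 fold change -3.91, SE 0.95, edgeR adjusted p = 0.0323). This call was lost without 4T1 library 2 or 3 (adjusted p = 0.0502 and 0.0594) and without CD4 library 12, 13 or 15 (adjusted p 0.0732 to 0.0833).

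The other 3 were chosen after their values were seen. Tlr4, the lipopolysaccharide receptor and a proposed receptor of extracellular NAMPT, was at 17.5, 21.7, 22.2, 29.3 and 14.5 CPM against 5.86, 6.77, 4.22, 9.75 and 6.81 CPM (log2 fold change 1.76, SE 0.31, edgeR adjusted p = 0.00481). Entpd1, the ectonucleotidase CD39 that regulatory T cells and myeloid cells carry, was at 86.6, 81.3, 93.4, 115 and 32.6 CPM against 16.6, 22.6, 13.8, 42.8 and 27 CPM, with library 5 below CD4 library 14 (log2 fold change 1.86, SE 0.34, edgeR adjusted p = 0.00619). Cd86, a co-stimulatory ligand of antigen-presenting cells, was at 81.5, 98.4, 85.8, 52.9 and 33.2 CPM against 22.9, 19.2, 23.2, 29.3 and 29.3 CPM (log2 fold change 1.62, SE 0.28, edgeR adjusted p = 0.00452). Tlr4 and Cd86 did not overlap between the groups.

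The same contrast in C269-treated tumours uses other libraries of the series. Of its 5 4T1 libraries, 9 and 10 stood apart, with simple-epithelial sums of 9802 and 9583 CPM against 551 to 2160 CPM in 6 to 8, and values are given with and without them. With all 10 libraries, 114 of 12768 tested genes were called higher (0.893%) and 228 lower (1.79%); without 9 and 10, 503 of 13392 were called higher (3.76%) and 496 lower (3.70%). The counts moved with single libraries as well. Without any 1 of CD4 libraries 16 to 20 they were 19 to 67 higher and 90 to 129 lower. Without 4T1 library 7 they were 363 and 332, without 9 they were 45 and 149, and without 10 there were 51 higher. Without both 9 and 10 the mature neutrophil list had 13 of 20 tested members higher and none lower, the secondary granule list 10 of 12 higher, the mast cell list 11 of 16 higher, and the T cell receptor list 21 of 22 lower. With libraries 9 and 10 included these counts were 0 of 18, 2 of 10, 1 of 10 and 14 of 22. S100a8 had a log2 fold change of 3.51 (SE 0.64, edgeR adjusted p = 0.0165), Foxp3 of -9.23 (SE 0.51, edgeR adjusted p = 3.02e-07) and Krt8 of 0.22 (SE 0.28, edgeR adjusted p = 0.723) without 9 and 10. With all 10 libraries the values were 2.80 (SE 1.23, edgeR adjusted p = 0.205) for S100a8, -7.72 (SE 0.73, edgeR adjusted p = 0.000638) for Foxp3 and 2.18 (SE 0.71, edgeR adjusted p = 0.117) for Krt8. With them, 20 of 21 tested simple-epithelial genes had positive fold changes and none was called (median 3.32). None of the 20 fibroblast genes passed with or without those libraries, and 7 of 9 MHC class II genes were called higher without 9 and 10 and 0 of 9 with them.

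Of the 591 genes called higher in CTRL and tested in both, 226 were also called higher in C269 without libraries 9 and 10, which is 38.2% of the CTRL calls and 50.6% of the 447 C269 calls. Of the 383 called lower, 241 were shared (62.9% of the CTRL calls and 50.4% of the 478 C269 calls). The sign of the fold change was the same in 98.3% and 97.9% of the CTRL calls. With libraries 9 and 10 included, 28 of 579 higher calls were shared (4.84% of the CTRL calls and 27.5% of the 102 C269 calls) and 128 of 380 lower calls (33.7% and 57.1% of 224). The sign was then the same in 92.6% and 92.9% of the CTRL calls. A test of the difference between the 2 treatments, with all 20 libraries, called 0 of 14064 genes in edgeR (0.0%), with 1476 at an unadjusted p under 0.05. Without libraries 9 and 10 it also called 0, while DESeq2 with all libraries called 121 higher and 22 lower. For S100a8 the difference of differences was -1.17 (SE 1.28, edgeR adjusted p = 0.794) and for Cd4 it was 2.15 (SE 0.97, edgeR adjusted p = 0.443). A difference between the treatments was therefore not shown in these genes.

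**Figure D5:**
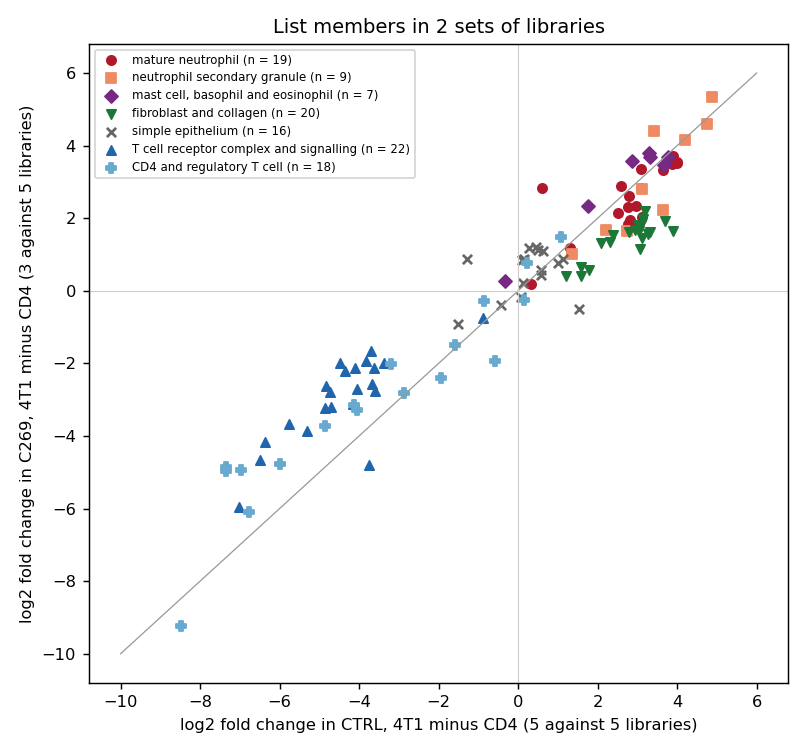
Log2 fold change of list members, 4T1 minus CD4, in CTRL (x axis, 5 against 5 libraries) and in C269 without libraries 9 and 10 (y axis, 3 against 5 libraries), with the line of equal values. Most neutrophil and mast cell genes lie to the upper right and most T cell genes to the lower left in both sets. The simple epithelium members have medians of 0.37 and 0.87 (3.32 in C269 with libraries 9 and 10 included).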

How the data were processed

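Gene counts were deposited by the authors as tables of raw counts per gene, with 1 column per library for 30 libraries. The submitters' processing notes name FastQC, featureCounts, DESeq2 and the build mm9; the aligner, the strand setting and all versions are not given in the sources used. For 100% of genes, each condition column matched the total over a single set of 5 library columns (252 sets tried, next best at most 31.1%), which ties the numbered libraries to their groups. Of 55141 gene identifiers found in GENCODE M21 (GRCm38), 99.6% had the deposited start, so positions are on GRCm38. From the deposited counts, 7 ribosomal RNA features (2.80% of counts in the 10 libraries) were left out, CPM were taken over the remaining total, and TPM used the union of GENCODE M21 exons per gene.

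Differences were tested with edgeR 4.0.16 in R 4.3.3 (filterByExpr, TMM, quasi-likelihood F test, Benjamini-Hochberg adjustment over all genes tested, threshold 0.05) on the libraries of the groups compared. Each standard error is the absolute log2 fold change over the square root of the F statistic, not an output of the fit. For genes with most 4T1 libraries at 0, the fold change also moved with the method and libraries used. Over the alternatives that of Foxp3 ran from -11.5 to -8.15 and that of Cd4 from -12.3 to -7.02. On simulated counts for this comparison (12493 genes, 200 changed) the test recovered 28.4% of 2-fold, 85.1% of 4-fold and 95.5% of 8-fold changes with 8 false calls. The simulated libraries were independent, with 1 spread per gene for both groups and no other difference in composition. The likeness of libraries 1 and 3 was not in them, so these figures do not give the error rate of the real calls. Alternatives were DESeq2 1.42.0, its size factors, library totals, no filter, glmTreat against 2-fold, all 6 groups, and TMM without neutrophil and erythroid genes. Each library was also left out, libraries 1 and 3 were left out or summed, and libraries 1, 3 and 5 were left out. The last of these and the summing were chosen after seeing the data. In C269, 4T1 libraries 9 and 10 were left out as well. These libraries, like 1 and 3, are ones that stood apart by their values. Genes were named by rule: the 12 called genes per direction with the largest absolute log2 fold change, a higher-group mean of 20 CPM or more and no overlap among the 10 libraries, leaving out predicted, ribosomal and receptor-segment names; up to 5 of the most abundant tested members of each of 34 lists; and 19 set markers. The members and lists were chosen with earlier results of these data known. Promoter sequences come from RefSeq (GRCm38.p6), with an entry for 61 of 92 genes followed.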

Additional observations from a re-analysis of the deposited data

Results flagged for a closer look

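In 45 of 252 sets of 5 values (a gene or list sum in 1 group) the highest or lowest library stood off from the next. Its gap to the next, over the range of the 5, exceeded Dixon's 95% critical value of 0.71. That value is meant for normally distributed values, and untransformed CPM were used. A set with counts in a single library is flagged whatever the count, as for Foxp3, Izumo1r, Cd40lg and Tdrp in 4T1. The sets also share libraries, so the 45 cannot be set against a rate expected by chance. CD4 library 14 accounted for 16 of them. It was lowest among CD4 libraries in Cd4 (71.3 CPM), Tcf7 (48.5 CPM), Trat1 (14.5 CPM), Tdrp (3.75 CPM), Ikzf4 (60.5 CPM), Mbp (65.8 CPM), Fosl2 (378 CPM) and the sums of the T cell receptor (2406 CPM) and Schwann cell lists (96.3 CPM). It was highest in Wnt7b (126 CPM), Slpi (1569 CPM), C1qa (646 CPM), Slc2a1 (163 CPM), Nampt (175 CPM) and the sums of the mature neutrophil (2859.7 CPM) and hypoxia lists (3704 CPM). CD4 library 11 was highest in Wnt2 (5.86 CPM), S100b (3.06 CPM) and the fibroblast sum (7964 CPM) and lowest in Mirt2 (1.02 CPM), and CD4 library 12 had the lowest simple-epithelial sum (379 CPM).

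On the 4T1 side, library 5 was highest in Dmkn (71.3 CPM), Wnt2 (93.8 CPM), Sfrp2 (542 CPM), Col1a1 (13039 CPM), Col3a1 (18479 CPM), Lum (509.8 CPM) and the sums of the fibroblast list (69312 CPM) and of the Wnt receptors, modulators and targets (2078 CPM), and lowest in Csf3r (9.35 CPM). Library 2 was highest in Krt8 (183 CPM), Krt18 (277 CPM), the simple-epithelial sum (781 CPM), Cxcl2 (13054 CPM) and Tnfrsf4 (8.52 CPM), and lowest in Mcm6 (35.3 CPM). Library 4 was highest in Mcm7 (108 CPM) and the endothelial sum (222 CPM). Several genes that were lower in the 4T1 fraction had most of their few 4T1 counts in library 1 or 3: Cd40lg (1.07 CPM), Pdcd1 (6.63 CPM), Tdrp (0.855 CPM) and Esm1 (1.28 CPM) in library 1, and Foxp3 (0.896 CPM), Izumo1r (0.448 CPM) and Cd5 (3.58 CPM) in library 3.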

How the results depend on the processing

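No paired analysis was possible because the count columns carry no replicate letter that could be matched to the titles. Against 603 genes higher and 383 lower in the 4T1 fraction, DESeq2 called 1512 and 735, library totals gave 615 lower, a fit of all 6 groups gave 298 higher, glmTreat against 2-fold gave 87 and 57, leaving out libraries 1 and 3 gave 948 and 1132, and leaving out 1, 3 and 5 gave 1014 lower. Leaving out 1 library gave 236 to 690 higher and 158 to 585 lower. In C269, against 114 and 228, no filter gave 65 higher, DESeq2 gave 1263 and 585, leaving out libraries 9 and 10 gave 503 and 496, and leaving out 1 library gave 19 to 363 and 90 to 332. For the difference between treatments, 0 in edgeR, DESeq2 called 121 higher and 22 lower. These causes were not tested.

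Among lists, a fit of all 6 groups called 10 mature neutrophil genes (16 in the 2-group fit), 1 chemokine (8) and 2 mast cell genes (5). DESeq2 called 13 chemokine and 17 fibroblast genes (7). glmTreat called 2 chemokine, 3 mast cell, 0 fibroblast, 0 hypoxia (6) and 9 T cell receptor genes (20). No filter gave 3 fibroblast and 9 T cell receptor genes, and libraries 1 and 3 summed gave 4 fibroblast genes. Without libraries 1, 3 and 5 there were 3 mast cell genes, 1 fibroblast gene and 10 hypoxia genes. Leaving out 1 library gave 1 to 12 fibroblast genes, 2 to 7 hypoxia genes and 9 to 20 T cell receptor genes.

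The direction of 7 genes that were not called turned. Without CD4 library 14 and without 4T1 libraries 1, 3 and 5, Wnt7b was at 0.065 and 0.0278. Leaving out 1 library moved Krt8 from -0.26 to 0.21, Krt18 from -0.18 to 0.22 and C1qa from -0.12 to 1.32, lowest without 4T1 library 2 for the keratins and without 4T1 library 4 for C1qa. Without libraries 1 and 3, and without 1, 3 and 5, Ms4a1 was at -3.01 and -2.49, Igkc at -0.98 and -1.92, and Ighm at -1.82 and -1.42. None of the 62 called genes followed changed direction in any alternative, and 33 of them kept their call in every one. Of 1839 gene values under alternatives, 1654 kept direction and call, 132 lost a call, 42 gained one and 11 turned. Depth limits genes near 0: in libraries of 2347983 to 4676469 gene counts, a T cell gene with counts in 1 or 2 of the 4T1 libraries has a fold change that depends on few reads.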

Other observations

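Few members of several other lists passed the count filter, and few of these were called. Over all tested genes 4.83% were called higher and 3.07% lower. Of 11 pericyte and smooth muscle genes 5 were tested and none was called (median log2 fold change 0.98), and of 11 skeletal muscle genes 4 were tested and none was called (median 0.68). Of 13 NK cell genes 5 were tested and none was called (median 0.87). Without libraries 1 and 3 there were 3 of 5 called lower (median -4.32). Among 4 tested Schwann cell genes, S100b, a calcium-binding protein of glia that other cells also make, was higher (log2 fold change 2.96, SE 0.83, edgeR adjusted p = 0.0458). The S100b call was lost without 4T1 library 1, 2, 3 or 5 (adjusted p 0.0616 to 0.0906) and without CD4 library 12, 13, 14 or 15 (adjusted p 0.0796 to 0.130). Mbp, myelin basic protein with a haematopoietic transcript, was lower (log2 fold change -1.46, SE 0.28, edgeR adjusted p = 0.00777). Of 10 tested plasma cell genes 8 had positive fold changes (median 1.12, or -0.72 without libraries 1 and 3). The called member was Sdc1, the syndecan CD138 that epithelia also carry (log2 fold change 1.14, SE 0.27, edgeR adjusted p = 0.0251), and its call was lost without CD4 library 11, 12, 13 or 15 (adjusted p 0.0636 to 0.0786). The plasma cell list summed to 3259.9 and 3107 CPM in libraries 1 and 3, above every CD4 library (471 to 1420.4 CPM). Mzb1 was at 0 in all 10 libraries and Tnfrsf17 in the 5 4T1 libraries. Of 19 immediate early and heat shock genes, which respond to handling and stress, 1 was called, Fosl2, and it was lower (log2 fold change -1.003, SE 0.20, edgeR adjusted p = 0.0117). S100b, Mbp, Sdc1 and Fosl2 were named after their values were seen.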
